A study of Mus musculus with 6 samples.

Results

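The imprinted growth network is a group of genes that, in at least some tissues or transcripts, are expressed mainly from the copy inherited from 1 parent. The genes H19, Dlk1, Meg3, Peg3, Mest, Plagl1, Grb10, Ndn, Gnas and Sgce, were chosen by name with earlier results of these data known, and every probe set annotated to any of them was taken, which gave 41 of 45037 probe sets and 10 of 18194 genes. The arrays compared juxtaglomerular (JG) cells with renal mesenchymal stromal cells (MSC), with 3 samples in each group. Both cell types came from adult C57BL6 mice of genotype Ren1c YFP, in which a yellow fluorescent protein marks cells that use the renin gene, and no further treatment or allele is given. The JG cells were sorted by that fluorescence, whereas CD44, a surface antigen, was the marker for sorting the MSC, which were then grown to confluence in culture. The labels repeat the MSC medium, DMEM with 10% FBS, for the JG samples too, so they do not settle whether the JG cells were cultured. They do not say whether samples came from separate mice or cultures, so p-values measure only the spread between these samples, which may be technical. Cell type and culture cannot be told apart in this design.

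Genomic imprinting marks a gene in the egg or the sperm by DNA methylation so that 1 parental copy stays silent in the offspring. Many imprinted genes regulate growth before and after birth, and a set of them is expressed together in embryonic tissues and falls in level as organs mature. Plagl1 encodes a zinc finger transcription factor known to act on several other genes of the set. These arrays read total RNA and do not tell the parental copies apart.

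Values are linear intensities of a probe set as the authors deposited them, and means are given ± SD with n = 3. Differences are JG minus MSC on the scale of log2(intensity + 16) ± SE, so a negative value is a higher level in MSC, and the fold stated beside one is on that same scale. Adjusted p-values are from limma with Benjamini-Hochberg adjustment over all 45037 probe sets, and a probe set with an adjusted p under 0.05 is said to be called. Intensities under 16 lie in the range where the added 16 dominates, so a difference from a group under 16 understates the change. Levels of different probe sets are not compared with each other, since probes differ in how strongly they bind.

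The arrays checked the labels only in part. All 11 measured proximal tubule markers and 9 of 10 markers of the loop and distal nephron were called higher in JG, with summed intensities of 27281 to 35588 and 14904 to 23144 in the JG samples and of 383 to 701 and 65.2 to 101 in MSC. Of 8 measured renin cell markers 3, including Rgs2 and Rgs5, passed with JG higher, and Ren1 was not analysed here. Aldh1a2 was the 1 of the 8 with a negative difference. It lay below MSC on every JG array without a call (-2.76 ± 0.70, adjusted p = 0.0607). Of 7 MSC surface markers Cd44, the sort marker, and Itgb1 were called higher in MSC, and Thy1 and Nt5e were called higher in JG. The arrays correlated at 0.952 to 0.971 within MSC and at 0.779 to 0.866 within JG. JG sample 1 stood nearest to the MSC samples, at 0.807 to 0.834. In such bulk samples fewer cells of a type and less RNA per cell cannot be told apart.

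Of the 10 genes, Peg3, Grb10 and Ndn had probe sets called higher in MSC, and most of the others had negative differences that were not called. Of 41 probe sets 5 were called higher in MSC, 3 of Peg3 and 1 each of Grb10 and Ndn, where 5.57% of all probe sets were. None of the 41 was called higher in JG by limma, where 4.23% of all probe sets were, and 1 was at an unadjusted p under 0.05. When each gene was read by its brightest probe set, 1 of 10 genes, Peg3, was called higher in MSC against 6.13% of all genes, and 0 were called higher in JG against 6.65%, with 6 and 1 at an unadjusted p under 0.05. The median difference of the 10 genes was -0.83, and that of all 18194 genes was 0.07. The difference was negative for 9 of 10 genes and for 46.2% of all genes. Among the 9, Dlk1 (-0.02 ± 0.32) and Meg3 (-0.38 ± 2.01) had an SE larger than the difference. Their signs turned under other settings. That of Gnas turned only where its other probe sets were averaged in or 1 of them took the place of the brightest.

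Sample ranges were also set against each other. The 3 JG values lay below all 3 MSC values for 15 of the 41 probe sets, against 18.1% of all probe sets. They lay above for 3, against 16.1%. By brightest probe set they lay below for 6 of 10 genes (H19, Peg3, Grb10, Ndn, Gnas and Sgce), against 18.7% of all genes. They lay above for Mest alone, against 3680 of all 18194 genes. Leaving out MSC sample 1, 2 or 3 took the count of called member probe sets from 5 to 2, 3 or 2. Leaving out JG sample 1 took it to 11. Over all 45037 probe sets the same omissions took the count from 4413 to 1694, 1501 or 1449, and to 10177. By brightest probe set they took the count of called member genes from 1 to 0, 0 or 0, and to 3.

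**Figure D1:**
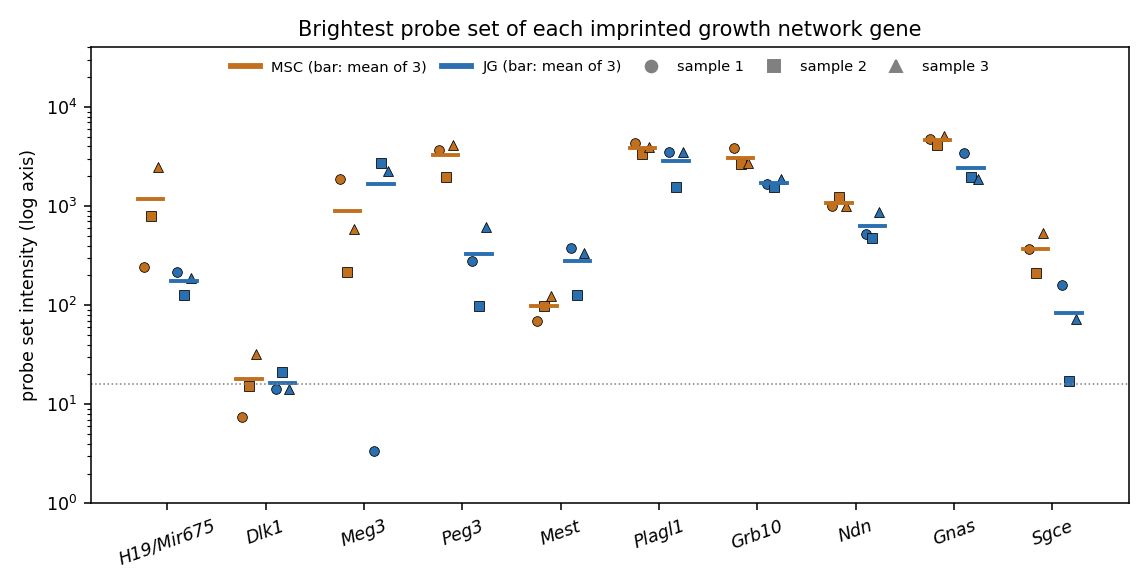
Intensity of the brightest probe set of each member gene on a log axis, with 1 point per sample (circle, square and triangle for samples 1, 2 and 3), MSC in orange, JG in blue and a bar at each mean of 3. The dotted line marks an intensity of 16. The Peg3 values in JG (98 to 613) lie below those in MSC (1989 to 4109.8), Mest is the only gene whose JG values all lie above MSC, and Dlk1 stays at 32.0 or less on every array.

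**Figure D2:**
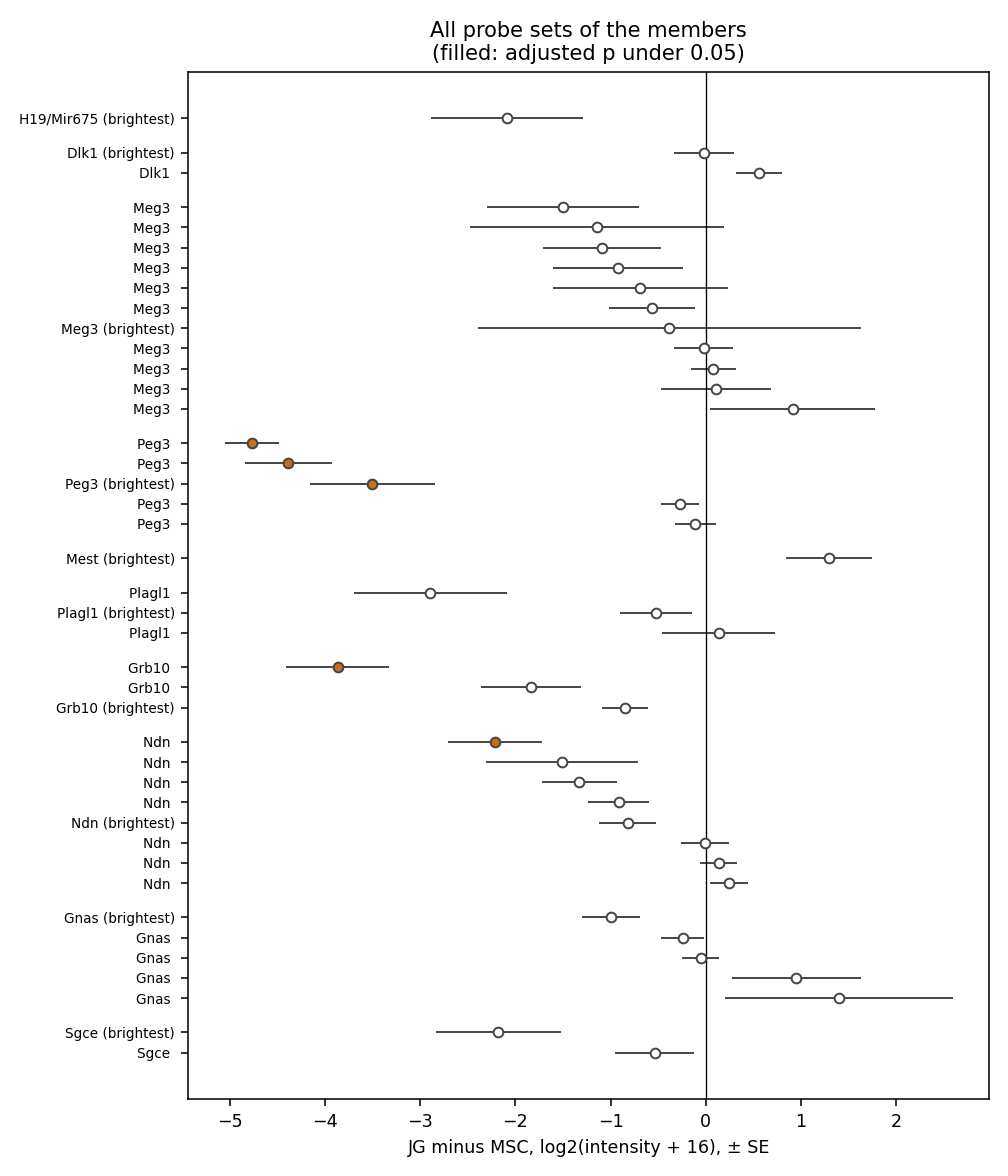
Difference JG minus MSC of log2(intensity + 16) with its SE for all 41 probe sets, grouped by gene, where filled points have an adjusted p under 0.05. The 5 filled points belong to Peg3, Grb10 and Ndn and lie on the MSC side, between -4.77 and -2.21.

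Peg3, a paternally expressed gene for a zinc finger protein that takes part in the control of fetal growth and of cell death, had the most negative difference of the members. Its probe set 1417355_at read 1632, 1192 and 2019.6 in MSC samples 1 to 3 and 31.5, 49.5 and 48.5 in JG samples 1 to 3. Every JG value was far below every MSC value, and the difference was -4.77 ± 0.28, 27.2-fold (adjusted p = 0.000486). Probe set 1433924_at read 2836, 2259 and 4259.9 in MSC and 130.01, 68.2 and 231 in JG, a difference of -4.39 ± 0.46 (adjusted p = 0.00380). The brightest, 1417356_at, read 3717, 1989 and 4109.8 in MSC and 279.9, 98.0 and 613 in JG, a difference of -3.50 ± 0.66 (adjusted p = 0.0258). All 3 put the same samples low, with JG sample 2 or 1 the lowest. The remaining 2 probe sets of Peg3 lay under 16 on all arrays and were not called. The calls of 1417355_at and 1433924_at held with any 1 sample left out, with adjusted p-values of at most 0.00709 and 0.0262. That of the brightest was lost without MSC sample 1, 2 or 3 (adjusted p = 0.103, 0.0728 and 0.116).

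The stretch of DNA just upstream of Peg3 is shown because it is the one member window that holds GGGGCCCC, the sequence described for the zinc finger factor of Plagl1, and that of Zim1 because this neighbour was called too. Both are the 250 bases before the annotated start, 5′ to 3′ on the minus strand of GRCm38.p6 from RefSeq, at chr7:6730420-6730669 for Peg3 and chr7:6696433-6696682 for Zim1. Capitals mark GGGGCCCC, which reads the same on both strands.
Peg3: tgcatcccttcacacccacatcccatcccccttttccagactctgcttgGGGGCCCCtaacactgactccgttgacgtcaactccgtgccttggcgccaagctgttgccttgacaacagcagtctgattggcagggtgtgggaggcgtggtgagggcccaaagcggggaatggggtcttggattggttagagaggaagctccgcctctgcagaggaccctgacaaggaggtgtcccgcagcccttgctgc
Zim1: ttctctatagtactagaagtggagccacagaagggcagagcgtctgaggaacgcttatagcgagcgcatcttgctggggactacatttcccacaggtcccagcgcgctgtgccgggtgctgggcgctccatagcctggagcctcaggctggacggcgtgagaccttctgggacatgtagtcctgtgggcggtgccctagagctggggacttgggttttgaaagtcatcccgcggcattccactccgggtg
Windows of 300 bases, 250 before and 50 after a start, were found for 8 of the 10 members (not for H19 and Sgce), 15 windows in all, since Gnas, Mest, Grb10 and Meg3 have several starts. GGGGCCCC was in 1 of these 15 and in 1.08% of all 32851 windows. The window of Usp29, the neighbour read in the opposite direction, overlaps that of Peg3 and holds the same copy. A match of letters is a description and not a binding site. The member windows held a median of 16 CG pairs against 7 over all windows, and 14 of the 15 held more than 7. Some windows of Gnas and of Mest overlap almost fully, so the 15 are not separate stretches of DNA.

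Sgce encodes epsilon-sarcoglycan, a membrane protein of the dystrophin-linked complex, from the paternal copy. Its brighter probe set, 1420688_a_at, read 365, 213 and 538 in MSC and 159, 17.3 and 73.4 in JG. The groups did not overlap, and JG sample 2 was the lowest. The difference of -2.18 ± 0.66 was not called (adjusted p = 0.0954), and it was called without JG sample 1 (adjusted p = 0.0276). The other probe set, with means of 19.1 ± 14.7 in MSC and 6.84 ± 5.32 in JG, was not called (adjusted p = 0.459).

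Ndn encodes necdin, a paternally expressed protein of the MAGE family that restrains cell division and is best known from neurons. Of its 8 probe sets 3 lay under 16 on all arrays, and the other 5 had negative differences from -2.21 to -0.82. The called one, 1415923_at, read 139, 140.5 and 164 in MSC and 60.6, 5.88 and 10.0 in JG, a difference of -2.21 ± 0.49 (adjusted p = 0.0436). JG sample 1 was the highest of the JG samples there, and the call held only in the fit that left that sample out (adjusted p = 0.00252). It was lost on leaving out MSC sample 1, 2 or 3 (adjusted p = 0.133, 0.141 and 0.163) and on leaving out JG sample 2 or 3 (0.0857 and 0.116). The brightest, 1437853_x_at, read 1010.1, 1237 and 993 in MSC and 519, 477 and 877 in JG, a difference of -0.82 ± 0.30 that was not called (adjusted p = 0.142). In 4 of the 5 bright probe sets JG lay below MSC on every array, and in 1435382_at JG sample 1, at 628, lay within the MSC range of 517 to 738.

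Plagl1, the transcription factor named above, is paternally expressed, and its 3 probe sets differed in size of change. The brightest, 1426208_x_at, read 4324, 3369 and 3975 in MSC and 3544, 1556 and 3524 in JG. Only JG sample 2 stood apart there, the groups overlapped, and the difference of -0.52 ± 0.38 was not called (adjusted p = 0.425). A dimmer one, 1450533_a_at, read 704.5, 369.7 and 664 in MSC and 172, 6.07 and 94.5 in JG, without overlap, at a difference of -2.89 ± 0.80 (adjusted p = 0.0776). Without JG sample 1 or 2 that probe set was called. The last, 1438588_at, had a difference of 0.13 ± 0.59 (adjusted p = 0.908).

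Mest is a paternally expressed gene for an enzyme of the alpha/beta hydrolase fold that is abundant in embryonic mesoderm. By brightest probe set it was the 1 member whose JG values all lay above MSC. Its single probe set read 68.5, 99.4 and 124.01 in MSC and 382, 126.8 and 336 in JG. The lowest JG value, of sample 2, all but touched the highest MSC value. The difference of 1.29 ± 0.45, 2.45-fold, was not called (adjusted p = 0.132), and it was called without JG sample 2 (adjusted p = 0.0271).

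Dlk1, which encodes a membrane ligand related to Delta that marks immature fat and stromal progenitors, was dim in every sample. Its brighter probe set read 7.49, 15.2 and 32.0 in MSC and 14.3, 21.2 and 14.2 in JG, with overlapping groups and a difference of -0.02 ± 0.32 (adjusted p = 0.980). The other stood at 1.1 to 7.94 in MSC and 9.91 to 18.8 in JG (0.56 ± 0.24, adjusted p = 0.201). With no detection calls in the values, such levels are not read as presence or absence, and the sign of this gene turns with the setting.

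Grb10, an adaptor that dampens insulin and IGF1 receptor signalling and is expressed from the maternal copy in most tissues, was lower in JG on every array in all 3 of its probe sets. Probe set 1425457_a_at read 789, 503 and 640.3 in MSC and 87.5, 12.6 and 14.0 in JG. JG sample 1 lay above the other JG samples and below every MSC sample, and the difference was -3.86 ± 0.54, 14.6-fold (adjusted p = 0.0102). The brightest, 1425458_a_at, read 3896, 2645 and 2743 in MSC and 1667, 1556 and 1858 in JG, a difference of -0.84 ± 0.24 (adjusted p = 0.0845). The last, 1430164_a_at, had -1.84 ± 0.53 (adjusted p = 0.0843). The call of 1425457_a_at was lost without MSC sample 1 or 3 (adjusted p = 0.0542 and 0.0579), and the mean of the 3 probe sets was called (-2.18, adjusted p = 0.009).

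Gnas encodes the stimulatory G protein alpha subunit, which couples hormone receptors to cyclic AMP and so to renin release in JG cells, and the locus has further start sites with imprinted transcripts. The brightest of 5 probe sets, 1450186_s_at, read 4764, 4177 and 5154 in MSC and 3465, 1974 and 1857 in JG. The groups did not overlap, JG sample 1 was the nearest to MSC, and the difference of -0.999 ± 0.304 was not called (adjusted p = 0.0965). It was called without JG sample 1 (adjusted p = 0.0153). The probe sets 1443375_at and 1453413_at went the other way without a call, at 1.40 ± 1.20 (adjusted p = 0.503) and 0.95 ± 0.68 (adjusted p = 0.419), with JG samples 2 and 3 high and JG sample 1 within the MSC range. The other 2 lay under 16 on all arrays.

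H19 is a maternally expressed noncoding RNA that carries the microRNA gene Mir675 in its body and lies beside Igf2. The only probe set for it was paired with both H19 and Mir675 by the platform annotation, so its values belong to the pair. They were 243, 789.6 and 2479 in MSC and 215, 126.1 and 189 in JG. The MSC samples spread over a wide range while the JG samples stayed close together, and the lowest MSC value was just above the highest JG value. The difference of -2.09 ± 0.80 was not called (adjusted p = 0.159), and it was -1.27 without MSC sample 3 and -2.91 without MSC sample 1. The mature products of the microRNA are shown because they lie inside the transcript that this probe set reads, with bases 2 to 8, the seed, in capitals, from RefSeq on the minus strand of GRCm38.p6 at chr7:142577112-142577133 and chr7:142577078-142577099. The arrays did not measure them as mature molecules.
mmu-miR-675-5p: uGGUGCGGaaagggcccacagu
mmu-miR-675-3p: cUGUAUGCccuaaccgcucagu

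Meg3, a maternally expressed noncoding RNA next to Dlk1, varied widely between samples of 1 group, and its groups overlapped in every probe set. The brightest of its 11 probe sets, 1452905_at, read 1891, 215 and 594 in MSC and 3.38, 2724 and 2276 in JG, so that JG sample 1 was the lowest and JG samples 2 and 3 the highest of the 6. The difference was -0.38 ± 2.01 (adjusted p = 0.923), and 1.96 without JG sample 1 (adjusted p = 0.177). None of the 11 probe sets was called by limma, and 0 were at an unadjusted p under 0.05, with the lowest adjusted p at 0.286. Within MSC, sample 1 was the highest and sample 2 the lowest in 9 of 11 probe sets, the exceptions being 1436057_at and 1452906_at. JG sample 1 was the lowest of the JG samples in 6, sample 2 in 2 and sample 3 in 3, and 1439380_x_at read 124, 114 and 2329 in JG samples 1 to 3.

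**Figure D3:**
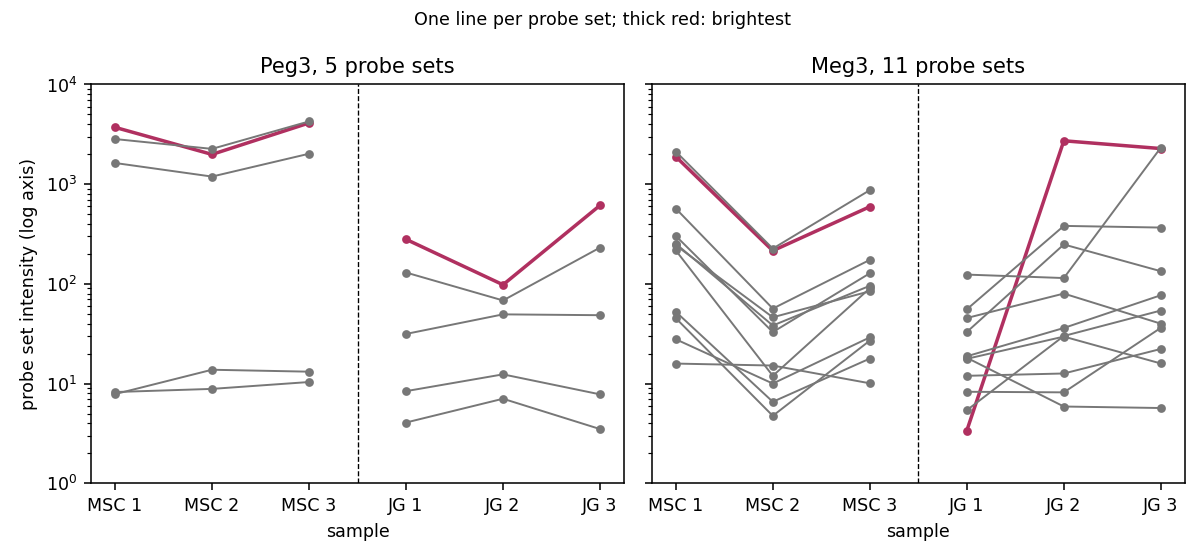
Intensity on a log axis of the 5 probe sets of Peg3 (left) and the 11 of Meg3 (right) in each of the 6 samples, with 1 line per probe set within a group and the brightest in red. The 3 bright Peg3 probe sets drop together from MSC to JG, whereas of the 11 Meg3 probe sets 9 have MSC sample 1 highest and MSC sample 2 lowest, and each JG sample is the lowest of its group in at least 2.

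Probe sets of 1 gene were also set against each other, since several members gave both a large and a small difference. For each gene with more than 1 probe set, the brightest minus each other was tested for a change between the groups by limma, adjusted over 16752 pairs. Of 31 such pairs among the members 0 were called, where 2.30% of all pairs were, and 7 were at an unadjusted p under 0.05. The pair of Grb10 probe sets 1425458_a_at and 1425457_a_at came nearest, with an unequal change of 3.02 ± 0.58 (adjusted p = 0.0506). Next were the brightest Peg3 probe set against the dim 1447731_at and 1447732_x_at (adjusted p = 0.0660 and 0.0696). For Plagl1 the pair 1426208_x_at and 1450533_a_at differed by 2.37 ± 0.56 (adjusted p = 0.0758).

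Genes beside the members on the chromosome gave mixed values. On chromosome 7, Zim1, a maternally expressed zinc finger gene next to Peg3, read 65.3, 33.0 and 44.4 in MSC and 6.11, 3.20 and 13.3 in JG and was called higher in MSC (-1.42 ± 0.29, adjusted p = 0.0334), an understatement since JG lay under 16. Usp29, read outward from the Peg3 start, stood at 116, 109.6 and 189 in MSC and at 17.1, 54.8 and 43.2 in JG, below MSC on every array without a call (-1.54 ± 0.37, adjusted p = 0.0543). Peg10, a gene derived from a retrotransposon that starts beside Sgce on chromosome 6, read 252, 307 and 822 in MSC and 72.0, 34.4 and 15.1 in JG and was called higher in MSC (-3.01 ± 0.57, adjusted p = 0.0263). All 3 lay below MSC in every JG sample. Zim1 lost its call in 5 of the 6 fits with 1 sample left out, those without MSC 1, MSC 2, MSC 3, JG 2 or JG 3 (adjusted p = 0.116, 0.0784, 0.128, 0.0670 and 0.0502), and Peg10 without the same samples (0.0629, 0.0864, 0.0776, 0.0640 and 0.0727).

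Of the neighbours beside other members, 1 was called, and no difference between a member and its neighbour was tested. Ddc, the DOPA decarboxylase gene beside Grb10 on chromosome 11, read 3.56 to 6.34 in MSC and 617, 405 and 182 in JG and was called higher in JG (4.19 ± 0.44, adjusted p = 0.00382). Copg2, which overlaps the end of Mest, was at 0.39 (adjusted p = 0.761), Rian, a noncoding RNA downstream of Meg3, at -0.64 (adjusted p = 0.388), and Magel2, next to Ndn, at 0.23 with at most 11.1 on any array. The other genes of the Ndn region, Peg12 (-0.86), Snrpn (-0.41), Ube3a (-0.28) and Mkrn3 (-0.19), were not called either. Near Grb10, Cobl lay above MSC on every JG array without a call (2.07, adjusted p = 0.0685). Near Sgce, Ppp1r9a (1.70), Calcr (0.16), Casd1 (-0.0084) and Asb4 (-0.03) were not called. Klf14 (0.44), Mirg (0.17) and Zim3 (0.10) were not called either. Without JG sample 1, Cobl, Ppp1r9a and Copg2 were called higher in JG (adjusted p = 0.0115, 0.0125 and 0.0262). In the same fit Usp29 was called higher in MSC (adjusted p = 0.0429). Igf2, the growth factor gene beside H19, read 23.2, 13.3 and 39.2 in MSC and 11.0, 213 and 9.37 in JG. Only JG sample 2 was high, and the difference of 0.44 ± 0.88 missed the threshold (adjusted p = 0.791). Of the 19 measured neighbours 2 were called higher in MSC (Zim1 and Peg10) and 1 in JG (Ddc), with a median difference of -0.0084.

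**Figure D4:**
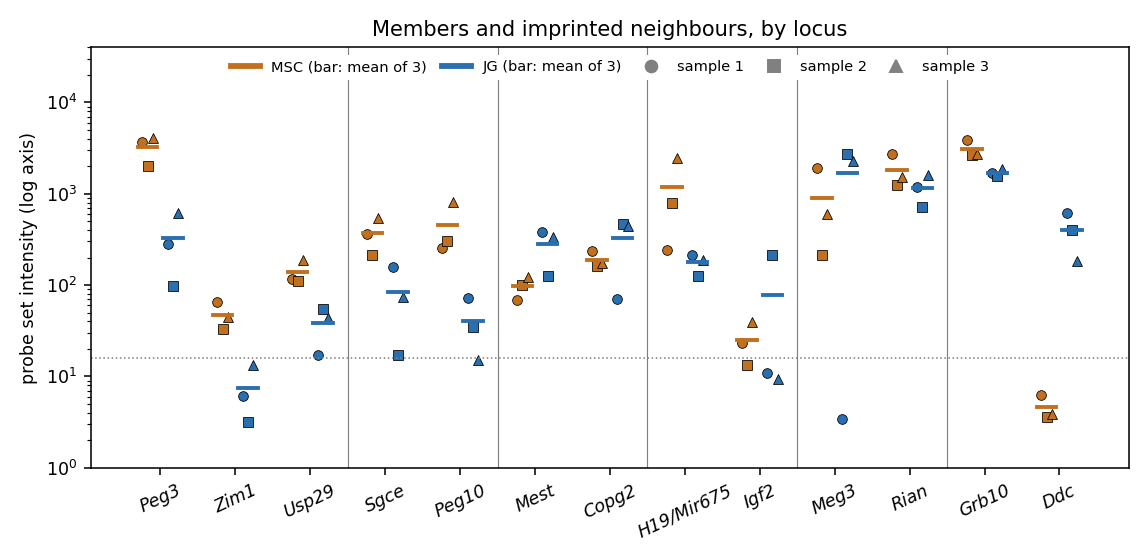
Intensity on a log axis of members and their imprinted neighbours, grouped by locus between vertical lines, with 1 point per sample, MSC in orange, JG in blue and bars at the means of 3. Peg3, Zim1, Usp29, Sgce, Peg10, H19/Mir675 and Grb10 lie lower in JG on every array. Mest lies higher on every array, as does Ddc beside Grb10.

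Imprinted genes outside the named 10 did not lie lower in JG as a group. Of 54 measured genes, which include 6 that keep imprints in place, 7 were called higher in JG and 4 higher in MSC. Over all genes these shares were 6.65% and 6.13%. The median difference of the 54 was 0.13, and that of the 6 was -0.81, with 5 of the 6 negative. The remaining genes of the network, Igf2, Igf2r, Cdkn1c, Dcn, Gatm and Slc38a4, had positive differences with all 6 samples. The sign turned for Igf2 without JG sample 2 (-0.61), for Igf2r without JG sample 1 (-0.13), and for Slc38a4 (0.05 ± 0.98) without JG sample 1 (-1.02), MSC sample 2 (-0.31) or MSC sample 3 (-0.09). Gatm, the first enzyme of creatine synthesis and abundant in the proximal tubule, read 1911, 1329 and 1701 in JG and at most 29.7 in MSC (5.59 ± 0.35, adjusted p = 0.000596). Cdkn1c, which encodes the cell cycle inhibitor p57, read 495, 58.5 and 141 in JG and 12.7 to 18.1 in MSC, without overlap, yet missed the threshold (2.58 ± 0.68, adjusted p = 0.0676). Cdkn1c was called without JG sample 1 or 2 (adjusted p = 0.0251 and 0.0278). Igf2r, the receptor that clears IGF2, was not called (0.32, adjusted p = 0.665).

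The genes called higher in JG included solute carriers. Slc22a2, an organic cation transporter of the proximal tubule, read 477, 611 and 676 in JG and at most 1.48 in MSC (5.12 ± 0.22, adjusted p = 0.000189), and Slc22a18, a transporter gene of the Kcnq1 domain, had 3.84 ± 0.57 (adjusted p = 0.0125). The potassium channel gene Kcnq1 had 2.54 ± 0.22 (adjusted p = 0.00185), Phlda2, a restrainer of placental growth, 1.94 ± 0.41 (adjusted p = 0.0374), and Nap1l5 1.31 ± 0.26 (adjusted p = 0.0313). All 5 had MSC means under 16. The proximal tubule markers had a median difference of 5.39 in the same samples, and their part in these values was not tested.

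Of the genes that keep imprints in place, Zfp57, a zinc finger protein that holds methylation at imprinted regions in the early embryo, read 149, 140.4 and 61.5 in MSC and 2.2, 10.1 and 7.4 in JG and was called higher in MSC (-2.50 ± 0.36, adjusted p = 0.0112). The maintenance methyltransferase gene Dnmt1 (-0.34, adjusted p = 0.608), its partner Uhrf1 (-1.61, adjusted p = 0.0882), Trim28 (-0.99, adjusted p = 0.277) and Ctcf (-0.64, adjusted p = 0.189) were not called. Dppa3, which guards methylation in the zygote, lay above MSC on every JG array without a call (0.65, adjusted p = 0.122). It read 1.08 to 1.33 in MSC and 6.7, 16.1 and 11.5 in JG, levels that are not read as presence or absence. Without JG sample 1, Uhrf1 was called higher in MSC (adjusted p = 0.0139) and Dppa3 higher in JG (adjusted p = 0.0494). Osbpl5, a lipid transfer gene of the Kcnq1 domain, read 149, 171 and 171 in MSC and 47.9, 2.61 and 12.3 in JG (-2.47 ± 0.46, adjusted p = 0.0256). Over the 54 genes, leaving out an MSC sample took the 7 JG calls to 4 in each of the 3 cases, and leaving out JG sample 1 took them to 12. The 4 MSC calls came to 0, 0 or 1 when MSC sample 1, 2 or 3 was dropped, to 8 when JG sample 1 was and to 1 when JG sample 3 was. Gatm, Ddc, Slc22a2 and Kcnq1 were called in all 6 of these fits. Zfp57 lost it without MSC sample 1 or 2 (adjusted p = 0.0540 and 0.0606), and Osbpl5 in the fits that left out MSC 1, MSC 2, MSC 3 or JG 3 (0.0916, 0.106, 0.112 and 0.0786). Slc22a18 lost it without MSC sample 1, 2 or 3 (0.0607, 0.0591 and 0.0587), and Phlda2 and Nap1l5 without MSC sample 1, 2 or 3 (0.125, 0.133 and 0.144 for Phlda2, 0.0925, 0.130 and 0.129 for Nap1l5) or the third JG sample (0.0804 and 0.0555).

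**Figure D5:**
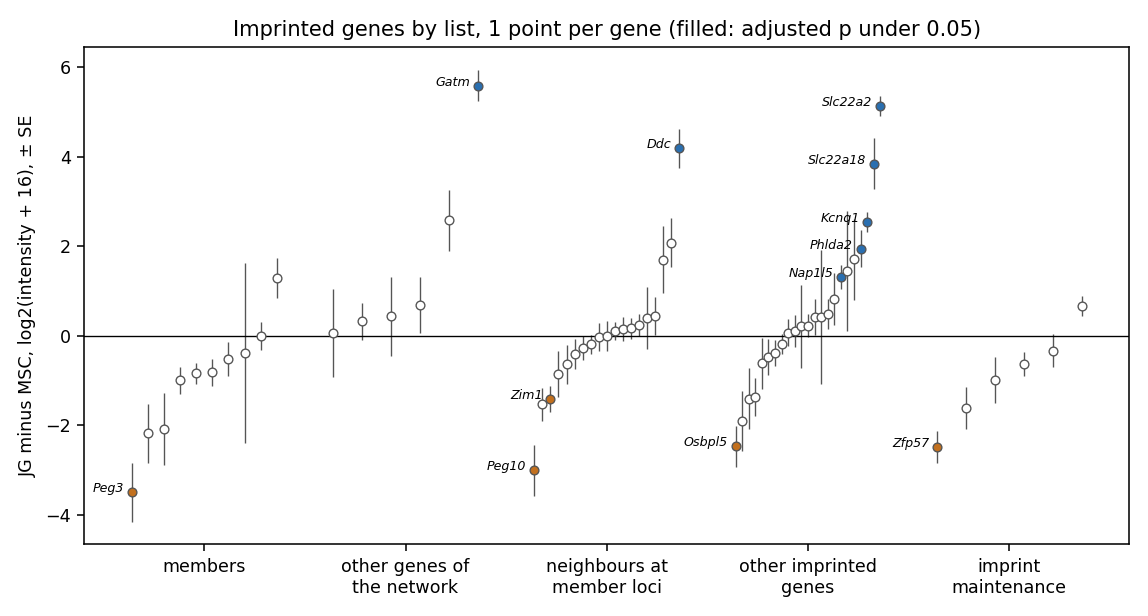
Difference JG minus MSC of log2(intensity + 16) with its SE for the 10 members and 54 other imprinted or imprint-keeping genes, each by its brightest probe set and sorted within its list, where filled and named points have an adjusted p under 0.05. The members lie mostly under 0 with Peg3 lowest, and the filled points of the other lists lie on both sides, from -3.01 for Peg10 to 5.59 for Gatm.

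Markers of other cell types gave the following values beside these results. The summed intensity of 10 mitosis genes was 3059 to 4377 in MSC and 710.1 to 1394 in JG, with a median difference of -2.44, and limma called 7 of them higher in MSC and 0 in JG (0 also at an unadjusted p under 0.05). Of 8 smooth muscle contractile genes 5 were called higher in MSC and 2 in JG. Of 8 fibroblast markers 4 were called higher in JG, with sums of 5744 to 7620.1 in MSC and 12252 to 26716 in JG, and of 9 endothelial markers 4 were, at 67.3 to 76.0 and 736 to 1100.1. Of 9 leukocyte markers 3 were called higher in JG, at 89.6 to 458 and 1605 to 4081. Fabp4 was the 1 call among 5 adipocyte markers, while the fat cell hormone gene Adipoq stayed at 25.2 or less on every array. Of 5 podocyte markers Wt1 was called higher in MSC, whereas Podxl read 99.8, 1013 and 227 in JG and 21.5 to 24.0 in MSC without a call. Their sums were 2449 to 4552 in MSC and 393 to 2290.5 in JG. No adrenal or chromaffin (8) or skeletal muscle (7) marker was called by limma, 0 of either at an unadjusted p under 0.05. The adrenal list summed to 169 to 174 in MSC and 153 to 379 in JG, with the chromaffin gene Th at 11.5 or less on every array and the cortical gene Star at 43.0, 155 and 161 in JG. The muscle list summed to 115 to 164 and 132 to 182, with Acta1 at 12.9 or less and Myod1 at 93.5 or less. The part of any of these cell types in the values of the imprinted genes was not tested.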

How the data were processed

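Biotin-labelled cRNA from 100 ng total RNA of 6 samples was hybridised to single-channel Affymetrix mouse arrays, per the labels. The authors deposited linear intensity values, 1 for each probe set on an array. For probe summary, background and scaling, the method was not given in the sources used here. Medians of the arrays ran from 27.3 to 36.5, and their number limits the precision. The platform annotation paired 34945 probe sets with 1 gene, 932 with several (among them that of H19 and Mir675) and 9160 with none in that table. Values entered as log2(intensity + 16) without further normalization or filter. The difference was fitted across all probe sets by limma 3.58.1 under R 4.3.3 (lmFit, then eBayes), with all 6 samples and no covariate. Tested on simulated data, with 600 changes of each size planted over 3 draws, the fit recovered 544 at a log2 size of 4. It recovered 0 at sizes of 1 and 2. Far fewer probe sets changed there than the 4413 called in the data, which makes the adjustment stricter, so these rates do not carry over. In the data smaller differences, such as Nap1l5 at 1.31, were called. A probe set that was not called is not shown to be alike in both groups. A gene was read by its probe set with the highest mean. All member probe sets were described, up to 4 called genes per direction of the other imprinted lists with Igf2, Igf2r and Cdkn1c, and the neighbours of members. Neighbours further from Ndn and the remaining uncalled neighbours were chosen after their values were seen. So were the fifth call of 1 such list, Nap1l5, uncalled genes of the imprint-keeping and network lists and the markers named singly. The members and lists were chosen with earlier results of these data known. Promoter and microRNA sequences were from RefSeq (GRCm38.p6). Alternatives covered normalization, pseudocount, dim probe sets, probe set choice, variance prior, array weights, the replicate block and each sample left out.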

Additional observations from a re-analysis of the deposited data

How the results depend on the processing

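Each setting changed 1 choice. Of 41 member probe sets, 5 higher in MSC and 0 in JG became 11 and 1 with array weights, and 2 to 11 and 0 to 1 with 1 sample left out. Over all 45037 probe sets, the 4413 calls in either direction became 10426 with array weights and 1449 to 10177 with 1 sample left out. The 1 member gene higher in MSC became 3 with array weights, 2 when a gene's probe sets were averaged and 0 to 3 with 1 sample left out, and the 0 higher in JG became 1 with array weights and 0 to 1 with 1 sample left out. Of the other imprinted genes, 7 higher in JG and 4 in MSC became 11 and 8 with array weights, and 4 to 12 and 0 to 8 with 1 sample left out. With a replicate block, the number in the labels, they became 4 and 0, and the member probe sets higher in MSC 4. The calls over all probe sets became 1603 there. The same-numbered samples' deviations correlated at -0.283, -0.0306 and -0.0740 across probe sets, so the numbers were not taken as pairs. Under the remaining settings (quantile normalization, median centring, pseudocounts, filters, the trend prior, suffixes) the counts of members and other imprinted genes stayed within 1.5 times.

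The sign turned only for uncalled values. Dlk1 was at 0.27 with the mean of its probe sets and 0.0614 with a pseudocount of 1. It was at 0.56 with suffixes s and x left out, where 1442724_at took the place of the brightest. With 1 sample left out it was at -0.26 to 0.26 (0.03 and 0.04 without JG samples 1 and 3). Gnas was at 0.21 with the mean and 1.40 with those suffixes left out, where 1443375_at took the place of the brightest. The brightest Gnas probe set itself, 1450186_s_at, stayed negative in every setting that read it alone. Meg3 was at 1.02 with array weights, 0.10 with a pseudocount of 64, and -1.61 to 1.96 with 1 sample left out (0.40 without MSC sample 1). For the others the sign held in all settings that gave a value; Dlk1 had none under the stricter filter on dim probe sets. Dlk1 stood at 32.0 or less on every array.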
